A study of Mus musculus with 10 samples.

Results

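The Gnas cluster is an imprinted domain on mouse chromosome 2, taken here as all CpG positions at chr2:174105000-174175000 of the mm9 build with at least 5 reads. Of 1416 CpG positions listed there, 530 had at least 5 reads in at least 1 of 10 libraries, out of 1728822 such positions in the whole series. Each library held 282 to 447 of them, and 217 were measured in all 10. The assay was reduced representation bisulfite sequencing, in which DNA is cut with MspI at CCGG, short CpG-rich fragments are kept and unmethylated cytosines are read as thymine after bisulfite treatment. A methylation level is the percentage of reads at a position that were methylated. The rule for the region uses no methylation value.

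The libraries came from leukaemic mouse spleens. In the cMyc-Bcl2 model, driven by the transcription factor cMyc and the apoptosis inhibitor Bcl2, leukaemic spleen cells gave 2 libraries with a Dnmt3b knockin and 2 WT libraries. In the MLL-AF9 model, driven by a fusion oncoprotein of acute leukaemia, c-kit+ leukaemic spleen cells gave 3 libraries with a Dnmt3b knockin and 3 WT libraries. The series' design text describes the knockin as inducible by tetracycline; Dnmt3b is a DNA methyltransferase that adds methyl groups at new sites. All 4 groups were leukaemic, and the oncogene and the c-kit selection cannot be told apart. The labels do not say whether each library came from its own mouse, so p-values measure the spread between these libraries. The assay does not measure expression, so neither Dnmt3b nor markers of the cell type were checked.

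An imprinted gene is expressed according to which parent transmitted the allele, and its differentially methylated regions carry methylation on 1 parental allele, so a level near the middle of the scale is usual there. From 5′ to 3′, the cluster holds the promoter of Nesp, which encodes a neuroendocrine secretory protein and is methylated on the paternal allele, then the promoters of XL (a long form of the G protein subunit) and of the antisense transcript Nespas, methylated on the maternal allele. Next come exon 1A, an alternative first exon also methylated on the maternal allele, and the promoter of Gnas itself, which encodes the stimulatory G protein alpha subunit and stays free of methylation on both alleles. These are statements of background; reads were not assigned to parental alleles in these data.

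RefSeq's promoter table lists 4 promoters of Gnas, each 250 bases before to 50 bases after a start. They were placed on mm9 by the spacing of their CpGs, and in each all positions listed in the files fell on a CpG of the sequence (23 of 23 for Nesp, 22 of 22 and 28 of 28 for 2 starts of exon 1A, and 66 of 66 for Gnas). The names follow their order along the chromosome. The Nesp start lay 45686 bp before the Gnas start, and both exon 1A starts lay 2257 and 2238 bp before it. Sequences are shown for the Nesp promoter, whose window averaged 24.5% over the WT libraries, and for the unmethylated Gnas promoter. These are the contrasting ends of the cluster. Both are on the plus strand, from RefSeq (GRCm38.p6), with mm9 placements chr2:174109571-174109870 and chr2:174155257-174155556. Capitals mark the CpGs that had at least 5 reads in at least 1 library.
Nesp promoter: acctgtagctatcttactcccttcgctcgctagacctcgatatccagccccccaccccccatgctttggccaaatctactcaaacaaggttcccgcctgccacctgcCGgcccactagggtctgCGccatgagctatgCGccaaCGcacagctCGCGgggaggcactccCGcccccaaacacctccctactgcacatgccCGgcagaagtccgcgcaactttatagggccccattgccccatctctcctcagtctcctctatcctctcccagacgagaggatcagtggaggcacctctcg
Gnas promoter: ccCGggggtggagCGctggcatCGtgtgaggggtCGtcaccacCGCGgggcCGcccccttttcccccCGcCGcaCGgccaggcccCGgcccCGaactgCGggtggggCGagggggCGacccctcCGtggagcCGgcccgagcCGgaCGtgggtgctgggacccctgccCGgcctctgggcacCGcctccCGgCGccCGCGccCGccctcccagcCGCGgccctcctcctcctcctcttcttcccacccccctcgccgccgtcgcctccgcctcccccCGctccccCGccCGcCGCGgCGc
The Gnas promoter sequence held 40 CpGs, 34 of them with at least 5 reads, and 6 CCGG sites, which MspI cuts. Its GC content was 81.7%, and 3.91% of 32851 mouse promoters in the table held as many CpGs. The Nesp promoter held 16 CpGs, 8 of them measured, 2 CCGG sites and 61.0% GC. CCGG, searched on both strands, which read alike, occurred in 52.8% of the promoters. The exon 1A promoter sequences held no CCGG, and no position within them reached 5 reads, so exon 1A was measured on either side of those sequences.

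Libraries held 14446933 to 46762220 CpG calls, of which 3976 to 13053 fell in the Gnas region, and a measured position had on average 11.8 to 28.6 reads. Chromosome 2 took 0.931 to 1.08 times its median share of calls over the libraries. Mitochondrial CpGs, a guide to unconverted cytosine, read as methylated in 0.910 to 3.20% of calls. Replicates correlated at 0.933 to 0.969 over CpG levels, and no library was treated as a copy of another. The files list both strands of a CpG as separate positions, and positions on one fragment share reads, so positions are not independent measurements.

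Among the positions measured in all libraries, partly methylated and unmethylated ones were nearly equal in number. Over the 5 WT libraries, 104 of the 217 positions measured everywhere averaged 20 to 80% (47.9% of them), 108 were below 20% and 5 were above 80%. The neighbouring 70 kb downstream had 2 of 33 positions at 20 to 80%, 27 below and 4 above. The 70 kb upstream had 11 measured positions, none of them in all libraries. In 1-kb windows, 23 held a measured position, and 12 held at least 3 positions measured in all 10 libraries. Of these 12 windows, 9 were partly methylated (105 positions), 2 were unmethylated (106 positions) and 1 was methylated (5 positions). The other 11 windows, 7 partly methylated and 4 methylated, lacked enough shared positions. Over the rest of the autosomes 15.8% of 40416 such windows were partly methylated, 48.1% unmethylated and 36.1% methylated, against 75.0%, 16.7% and 8.33% in the Gnas region. These shares are descriptions of which windows the assay reached.

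**Figure D1:**
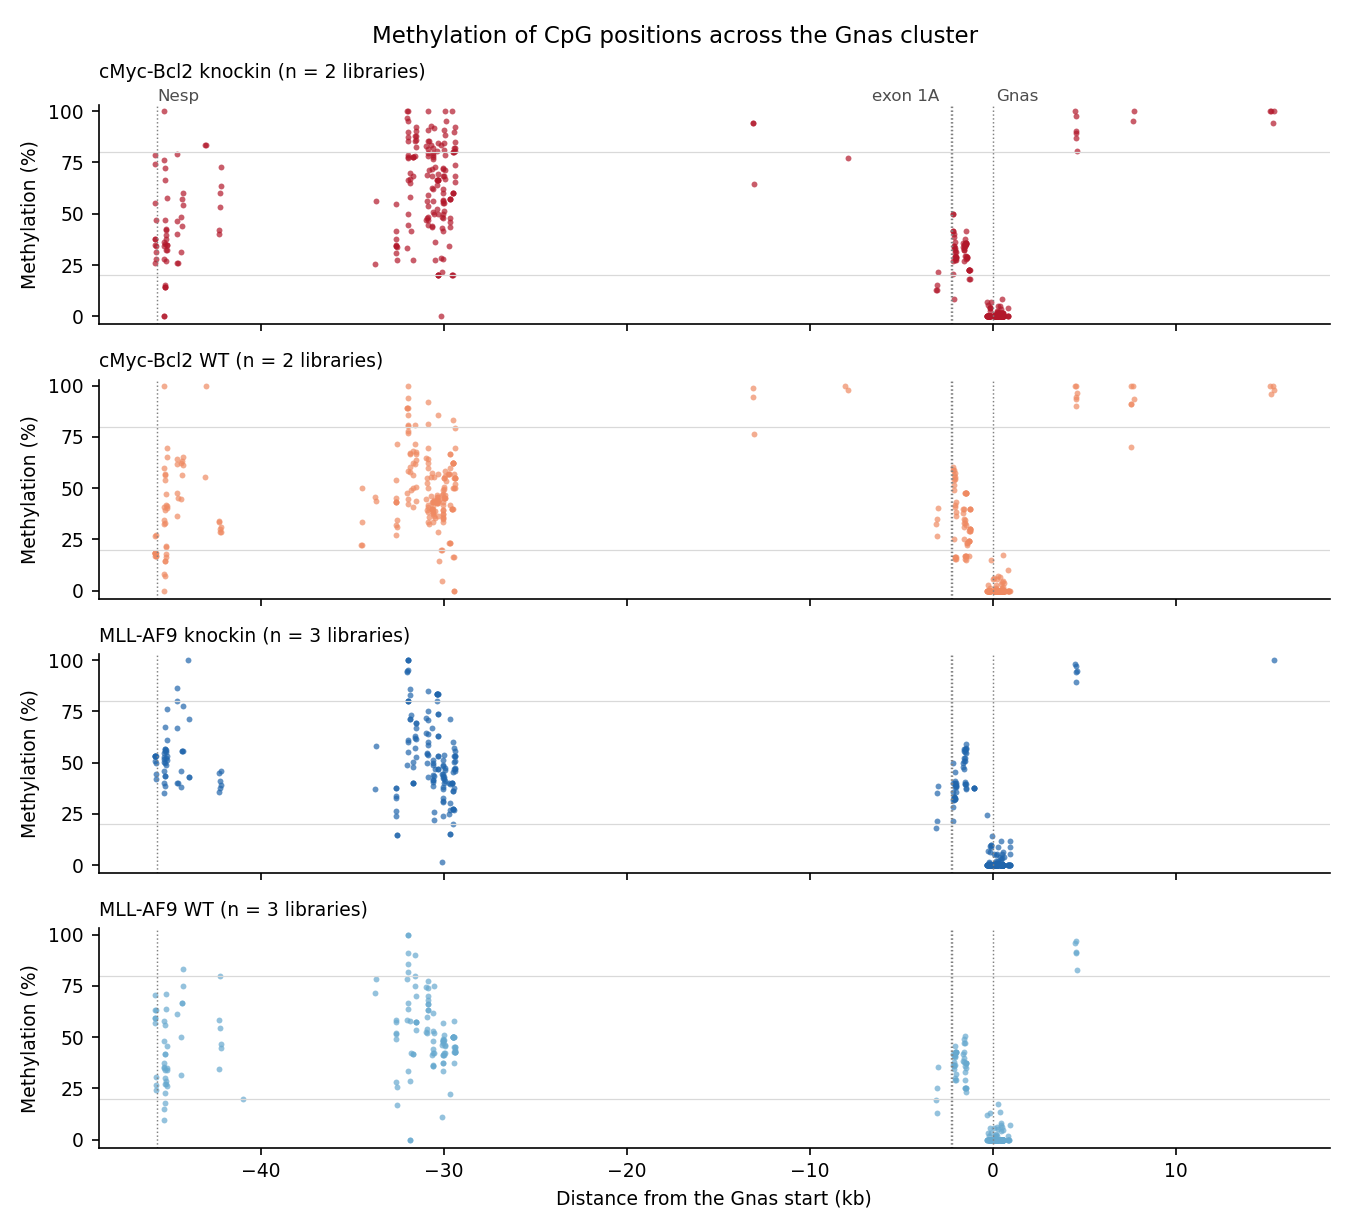
Methylation level (%) of each CpG position with at least 5 reads, as the mean over the libraries of a group, against distance from the Gnas start in kb; dotted lines mark the Nesp, exon 1A and Gnas starts and grey lines 20 and 80%. In all 4 groups, 3 clusters of partly methylated positions precede an unmethylated block at the Gnas start, and the few positions beyond it are methylated.

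The Nesp stretch, 3 windows with 20 shared positions over 3591 bp, was partly methylated in every library but varied most between them. Its mean level was 59.3 and 28.2% in cMyc-Bcl2 knockin libraries, against 41.4 and 38.2% in cMyc-Bcl2 WT libraries. In MLL-AF9 it was 65.6, 42.3 and 45.2% in knockin libraries, against 25.1, 40.8 and 52.5% in WT libraries. Groups overlapped in both models: the means were 43.8 ± 22.01% and 39.8 ± 2.26% in cMyc-Bcl2 (knockin and WT, SD, n = 2 each) and 51.0 ± 12.7% and 39.5 ± 13.7% in MLL-AF9 (knockin and WT, SD, n = 3 each). The stretch rested on few reads, 8.30 to 31.9 per position.

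The window over the Nesp promoter, chr2:174109001-174110000, had 3 shared positions. Its levels were 42.4 and 19.8% in cMyc-Bcl2 knockin, against 13.3 and 27.5% in WT, and 63.0, 32.3 and 40.9% in MLL-AF9 knockin, against 15.7, 30.04 and 35.9% in WT. The libraries at 19.8, 13.3 and 15.7% lay below the 20% bound of the partly methylated class. The window entered that class by its WT mean of 24.5%. The next window, chr2:174110001-174111000, lies just downstream of the Nesp start and had 12 shared positions. Its levels were 58.4 and 23.6% in cMyc-Bcl2 knockin, against 52.2 and 44.9% in WT, and 77.4, 45.5 and 46.1% in MLL-AF9 knockin, against 21.1, 34.8 and 56.1% in WT. In both windows the groups overlapped within each model. Over all calls at measured positions of the printed Nesp promoter, 46.4 and 27.2% were methylated in cMyc-Bcl2 knockin, against 12.3 and 25.5% in WT. In MLL-AF9 the shares were 52.3, 39.8 and 51.8% in knockin, against 15.4, 57.6 and 49.5% in WT. The lowest of these rested on few calls: 7 of 57 were methylated in cMyc-Bcl2 WT replicate 1 (exact 95% interval 5.08 to 23.7%) and 4 of 26 in MLL-AF9 WT replicate 1 (4.36 to 34.9%). The cMyc-Bcl2 knockin libraries lay above the WT libraries on this measure, and the MLL-AF9 groups overlapped. The libraries measured unlike positions, however. cMyc-Bcl2 WT replicate 1 had 5 and each other cMyc-Bcl2 library 11, and MLL-AF9 WT replicate 1 had 3 and each other MLL-AF9 library 9. Over the 5 positions measured in all cMyc-Bcl2 libraries the genotypes overlapped, at 42.0 and 20.2% in knockin, against 12.3 and 28.5% in WT.

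Between Nesp and exon 1A, where XL and Nespas lie by the order of the cluster, 4 windows with 54 shared positions over 3237 bp were partly methylated. The cMyc-Bcl2 genotypes did not overlap here. Its mean level was 65.7 and 61.0% in cMyc-Bcl2 knockin libraries, against 47.4 and 45.4% in WT libraries, a difference of 17.0 points. In MLL-AF9 it was 45.7, 48.3 and 46.8% in knockin libraries, against 53.4, 56.6 and 39.9% in WT libraries, so that the groups overlapped and the knockin mean was lower by 3.03 points. Partly methylated windows of the rest of the autosomes differed by 13.1 points in cMyc-Bcl2 and 9.25 points in MLL-AF9, as given below. This stretch was not tested as a unit. Its windows were tested in the fits across the genome, and none was called. The MLL-AF9 knockin libraries lay within a narrow range here (46.9 ± 1.28%, SD, n = 3), and the MLL-AF9 WT libraries spread wider (49.97 ± 8.86%, SD, n = 3).

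The 2 windows of the stretch with the most shared positions were higher in both cMyc-Bcl2 knockin libraries than in both WT libraries. At chr2:174124001-174125000, with 23 shared positions, levels were 69.1 and 64.4% in cMyc-Bcl2 knockin, against 53.5 and 47.0% in WT. With reads summed over its 28 positions measured in all cMyc-Bcl2 libraries, the genotypes lay closer. They were at 69.55 and 55.96% in knockin, against 53.83 and 48.28% in WT, a difference of 11.7 points. At chr2:174125001-174126000, with 21 shared positions, levels were 64.5 and 54.9% in cMyc-Bcl2 knockin, against 40.9 and 40.4% in WT. Neither window showed this in MLL-AF9, where genotypes overlapped. The first had 50.8, 59.2 and 55.7% in MLL-AF9 knockin, against 55.3, 68.8 and 43.2% in WT. The second had 41.3, 44.5 and 33.3% in MLL-AF9 knockin, against 48.5, 47.4 and 34.2% in WT. The flanking window chr2:174126001-174127000, with 5 shared positions, ranged widely. It had 84 and 88.4% in cMyc-Bcl2 knockin, against 30 and 76% in WT, a difference of 33.2 points. Over the 10 positions measured in all cMyc-Bcl2 libraries the genotypes overlapped, at 66.3 and 87.9% in knockin, against 43.1 and 73.1% in WT. In MLL-AF9 the shared positions had 74.3, 30 and 54.8% in knockin, against 36.7, 60 and 45.7% in WT. The remaining window, chr2:174122001-174123000, differed by -5.38 points in cMyc-Bcl2, with overlapping genotypes. Window chr2:174123001-174124000, which lies among these, had no position shared by all 10 libraries and is not part of the stretch. Over its 29 positions measured in all cMyc-Bcl2 libraries the genotypes overlapped, at 76.9 and 65.7% in knockin, against 73.6 and 62.05% in WT. The difference there was 3.45 points.

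**Figure D2:**
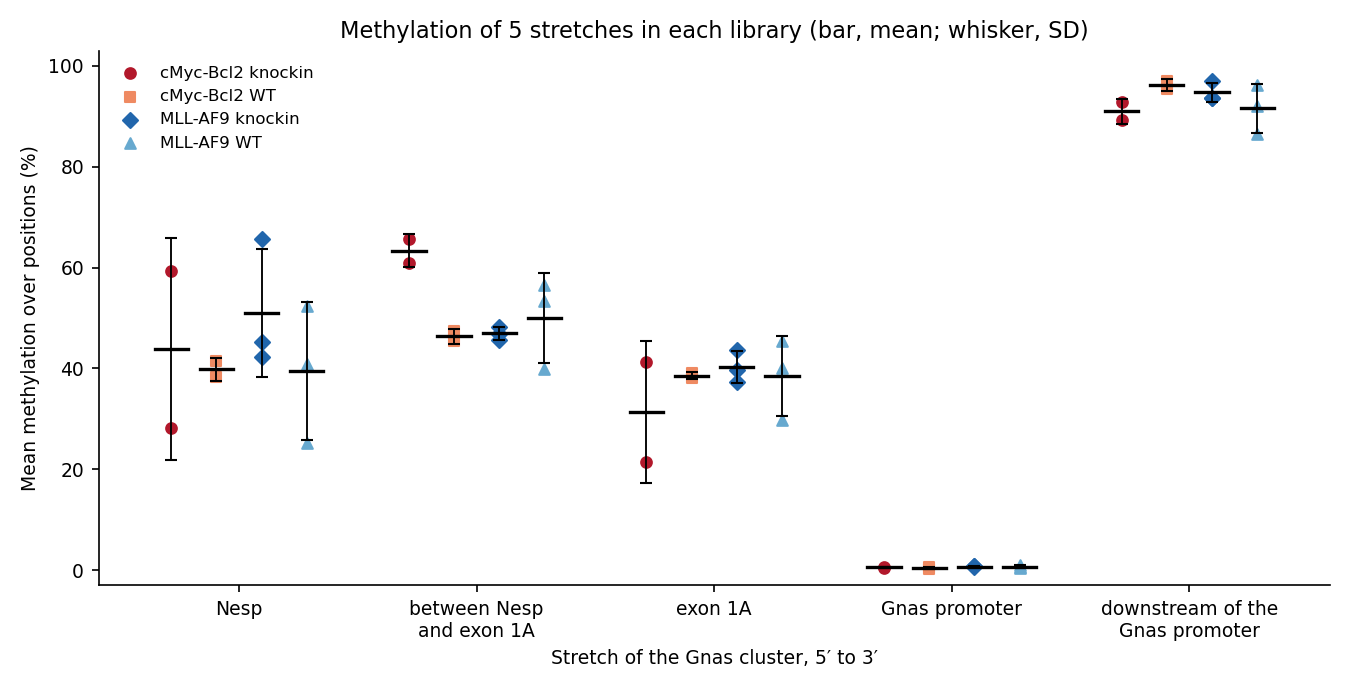
Mean methylation (%) over the positions measured in all 10 libraries, for 5 stretches of the cluster from 5′ to 3′; each point is a library, the bar is the group mean and the whisker its SD (n = 2 in cMyc-Bcl2 groups, n = 3 in MLL-AF9 groups). The cMyc-Bcl2 knockin libraries lie at 65.7 and 61.0% between Nesp and exon 1A, above both cMyc-Bcl2 WT libraries, while the Gnas promoter is at or below 1.01% in every library.

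Exon 1A, 2 windows with 31 shared positions over 1523 bp, stood near 40% in most libraries. Its mean level was 41.3 and 21.4% in cMyc-Bcl2 knockin libraries, against 39.1 and 38.1% in WT libraries. In MLL-AF9 it was 43.7, 39.7 and 37.3% in knockin libraries, against 29.8, 45.5 and 40.1% in WT libraries. Genotypes overlapped in both models, and the lowest value of all was that of cMyc-Bcl2 knockin replicate 2. The window with the most shared partly methylated positions, chr2:174153001-174154000 with 28, had 43.0 and 22.8% in cMyc-Bcl2 knockin, against 40.0 and 38.2% in WT. Its levels in MLL-AF9 were 44.3, 39.8 and 39.4% in knockin, against 30.9, 46.8 and 42.2% in WT. The window before it, chr2:174152001-174153000, had 3 shared positions, with 25.2 and 8.16% in cMyc-Bcl2 knockin, against 31.2 and 36.9% in WT, and 38.1, 38.9 and 18.3% in MLL-AF9 knockin, against 19.3, 33.6 and 20.6% in WT.

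cMyc-Bcl2 knockin replicate 2 differed from the other libraries in the evenness of the partly methylated windows. Of the 105 shared positions there, 65.7% lay at 20 to 80% in it, against 80 to 97.1% in the other 9 libraries. It was low at Nesp (28.2%) and exon 1A (21.4%) and high between them (61.0%). Its median depth at these positions was 20 reads, with 273 calls at the shared positions of Nesp and 1510 at those of exon 1A. Chromosome 2 took 0.979 times the median share of reads in this library, and the cause of its pattern was not tested. The class differences and the largest window differences that rest on the cMyc-Bcl2 knockin are given with and without it below.

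The step from partly methylated exon 1A to the unmethylated Gnas promoter was placed once, from levels averaged over the libraries of all 4 groups. Over positions measured in at least 8 libraries, the last partly methylated one was at chr2:174154046, 1461 bp before the Gnas start, with 46.6%. The first low one was at chr2:174155193, 314 bp before the start, with 2.95%. Within these 1147 bp, 24 positions had at least 5 reads in some library, none of them in as many as 8. All 136 positions from there through the promoter stretch stayed low: the highest averaged 8.23% and 132 were under 5%. At the last partly methylated position the means were 41.7% in cMyc-Bcl2 knockin, 47.6% in cMyc-Bcl2 WT (1 library), 58.9% in MLL-AF9 knockin and 37.4% in MLL-AF9 WT. At the first low position they were 0, 0 (1 library), 0 and 11.8% in the same order. Where the step lay inside this sparsely measured interval was not compared between groups. Beyond exon 1A, in the window chr2:174154001-174155000, levels were 35.3 and 20.6% in cMyc-Bcl2 knockin, against 23.1 and 32.4% in WT. In MLL-AF9 they were 42.9, 55.6 and 44.4% in knockin, against 16.4, 36.5 and 39.9% in WT, so that the 3 MLL-AF9 knockin libraries stood above the 3 WT libraries. No position of that window was shared by all 10 libraries, and each value is the mean over the positions that library measured.

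**Figure D3:**
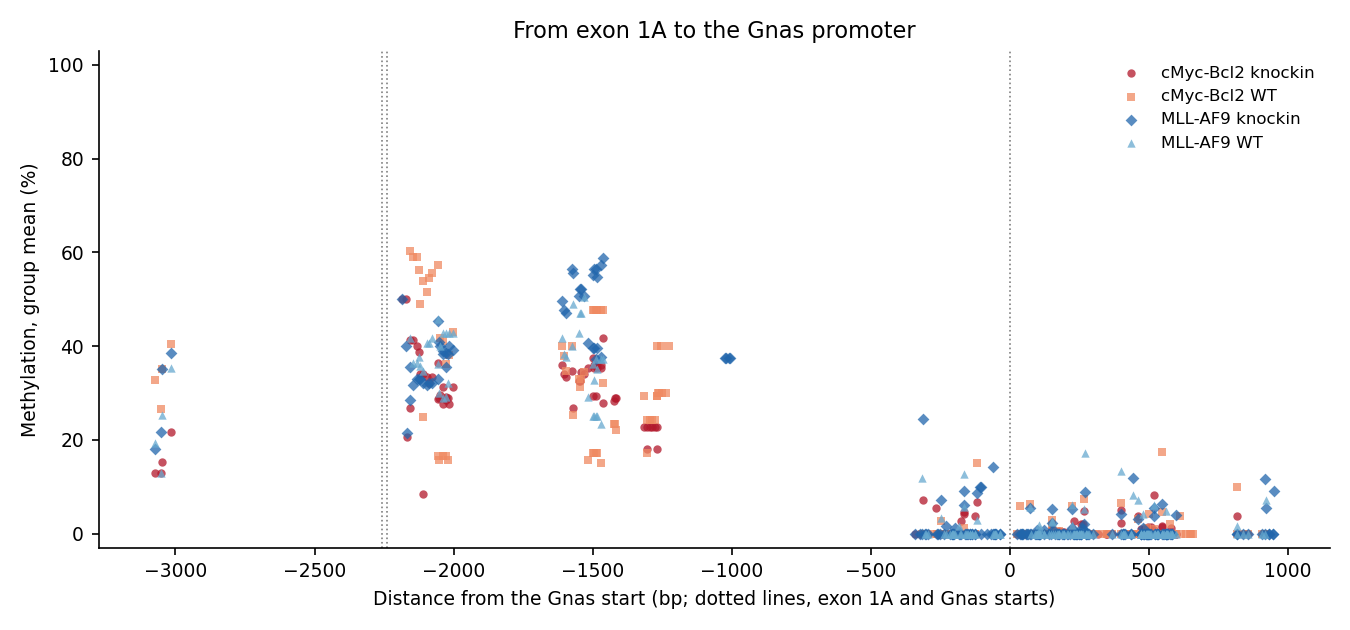
Methylation (%) as the mean over the libraries of a group, for each measured position from exon 1A to the Gnas promoter, against distance from the Gnas start in bp. Most positions up to about 1 kb before the Gnas start have group means of 20 to 60%, with some lower, and nearly all positions from 314 bp before it onwards lie close to 0.

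The Gnas promoter was unmethylated in every library, with a level below that of the mitochondrial CpGs of the same library. Its 2 windows, with 106 shared positions over 1088 bp, averaged 0.491 and 0.5996% in cMyc-Bcl2 knockin libraries, against 0.654 and 0.336% in WT libraries. In MLL-AF9 they averaged 0.774, 0.738 and 0.652% in knockin libraries, against 0.689, 0.438 and 1.01% in WT libraries. Genotypes overlapped in both models, and from 89 to 100 of the 106 positions had no methylated read at all. In the printed 300 bases alone, 2.18% of calls in MLL-AF9 knockin replicate 1 were methylated (8 of 367, exact 95% interval 0.946 to 4.25%), the highest of all libraries. The lowest was MLL-AF9 WT replicate 2 with 0.323% (2 of 619, exact 95% interval 0.0391 to 1.16%). These intervals cover counting error only, since reads are not independent molecules. The window over the start, chr2:174155001-174156000 with 77 shared positions, had 0.463 and 0.493% in cMyc-Bcl2 knockin, against 0.440 and 0.359% in WT, and 0.921, 0.864 and 0.651% in MLL-AF9 knockin, against 0.841, 0.541 and 1.08% in WT. In the following window, chr2:174156001-174157000 with 29, every library lay between 0.164 and 1.22%.

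The shared window downstream of the Gnas promoter was methylated. This window, chr2:174160001-174161000, whose centre lies 4.99 kb downstream of the Gnas start, with 5 shared positions, had 89.2 and 92.8% in cMyc-Bcl2 knockin, against 95.4 and 97.0% in WT. In MLL-AF9 it had 96.9, 93.7 and 93.6% in knockin, against 86.5, 92.1 and 96.2% in WT. The cMyc-Bcl2 knockin libraries lay below the WT libraries there, and the MLL-AF9 genotypes overlapped. The other methylated windows were sparse. Before the Gnas start, chr2:174142001-174143000 was measured in 3 libraries at 84.5% or higher. Also before it, chr2:174147001-174148000 was measured in 4, at 88.0 and 66.7% in cMyc-Bcl2 knockin, against 98.0 and 100% in WT. Downstream of the start, chr2:174163001-174164000 was measured in 4 libraries and chr2:174170001-174171000 in 5. The first averaged 97.5% in cMyc-Bcl2 knockin, against 93.5% in WT, and the second 98.6%, against 98.4%. The cMyc-Bcl2 genotypes overlapped in both of these downstream windows.

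Whether the knockin moved single windows was asked with a fit of methylated and unmethylated reads summed per window, over all autosomal windows, in which windows were called at an adjusted p below 0.05 where levels differed by 10 points or more. No window of the Gnas region was called in any of 5 comparisons. In cMyc-Bcl2, 0 of 16 region windows were called beside 0.0014% of 71497 windows genome-wide (percent called), and the lowest adjusted p in the region was 0.219. In MLL-AF9, 0 of 13 were called beside 0.0537% of 46593, and the lowest adjusted p was 0.274. With both models in 1 additive fit, 0 of 12 were called beside 3.71% of 40428, and the lowest adjusted p was 0.323. An unadjusted p under 0.05 was found in 1 region window in cMyc-Bcl2, beside 12.4% of windows genome-wide, in 2 in MLL-AF9, beside 14.8%, and in 0 with both models, beside 19.8%. Limma on M-values (log2 ratios of methylated to unmethylated reads) called 0 region windows in each as well. The p-values are from a quasi-binomial F-test moderated with limma and adjusted by Benjamini-Hochberg, and calls were also rare genome-wide within a single model, so a count of 0 is near the background there.

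The largest differences of the fits, which use summed reads, lay in the partly methylated windows. In cMyc-Bcl2 the largest positive one was 21.0 points at chr2:174113001-174114000, 3′ of Nesp (adjusted p = 0.429, quasi-binomial fit); it was 8.76 points without knockin replicate 1 and 33.3 without knockin replicate 2. That window had 71.6 and 44.2% in cMyc-Bcl2 knockin, against 32.5 and 28.6% in WT, and 38.8, 40.7 and 45.4% in MLL-AF9 knockin, against 40.4, 61.7 and 53.7% in WT. The largest negative one was -17.9 points at chr2:174152001-174153000, beside exon 1A (adjusted p = 0.526), and -10.3 points without knockin replicate 2. The window chr2:174125001-174126000 differed by 20.5 points and had the lowest p of the region in this model (p = 0.0103, adjusted p = 0.219, quasi-binomial fit with limma). It differed by 13.02 points without knockin replicate 1 and by 9.81 points at a minimum of 10 reads, with 12 positions. In MLL-AF9 the largest positive difference was 18.4 points at chr2:174154001-174155000 (adjusted p = 0.274), or 10.7 points without WT replicate 1. The largest negative one was -15.6 points at chr2:174122001-174123000 (adjusted p = 0.598), or -8.76 points without WT replicate 1, -8.36 without knockin replicate 1 and -23.6 without knockin replicate 3. The last window, with 5 positions shared by all libraries, had 37.1 and 44.0% in cMyc-Bcl2 knockin, against 64.0 and 27.9% in WT, and 12.5, 32.2 and 54.9% in MLL-AF9 knockin, against 82.3, 35.6 and 43.1% in WT. It also held the largest negative difference of the additive fit, -12.9 points (adjusted p = 0.783), which ranged from -21.9 to -5.37 points when 1 library was left out, the extremes being without cMyc-Bcl2 WT replicate 2 and replicate 1. The largest positive one was 19.4 points at chr2:174126001-174127000 (adjusted p = 0.323), with 7.89 points without cMyc-Bcl2 WT replicate 1 and 30.9 without replicate 2. None of these differences passed the threshold.

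The number of windows whose genotypes did not overlap was near the background, and nothing particular to the cluster is read from it. In cMyc-Bcl2 the knockin libraries stood above the WT libraries in 3 of 16 windows, or 18.8%, beside 23.5% of windows genome-wide, and below them in 2 of 16, or 12.5%, beside 17.2%. In MLL-AF9 they stood above in 1 of 13 windows, or 7.69%, beside 18.9%, and below in 0 of 13, beside 1.43%.

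**Figure D4:**
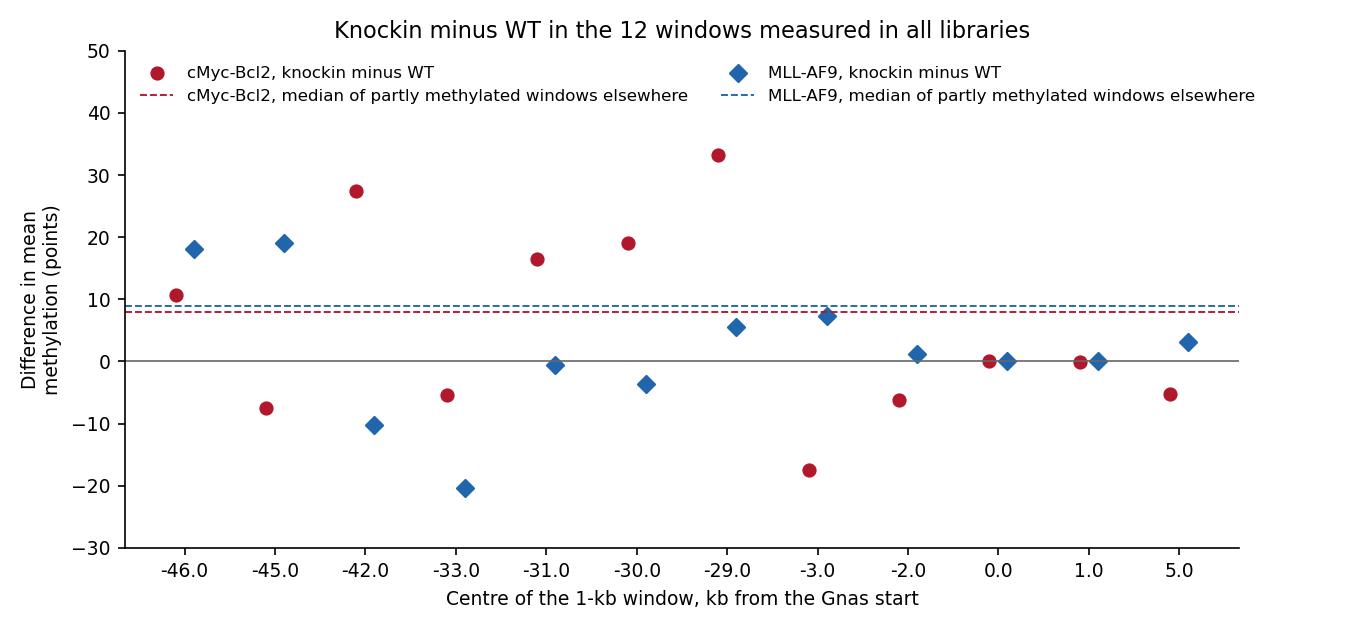
Knockin minus WT difference in mean methylation (points) for the 12 windows measured in all libraries, placed by their centre in kb from the Gnas start, with red circles for cMyc-Bcl2 and blue diamonds for MLL-AF9. Dashed lines give the median difference of the partly methylated windows in the rest of the autosomes, 7.93 points in cMyc-Bcl2 and 8.94 in MLL-AF9; both signs occur in the partly methylated windows, and the 2 windows at the Gnas promoter lie close to 0.

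Whether the knockin effect differed between models was asked with an interaction term over all 10 libraries. No region window was called (0 of 12, beside 0.0% of 40428); 2 of the 12 had an unadjusted p under 0.05, beside 10.98% genome-wide (4438 windows). Limma on M-values called 1 window genome-wide and 0 in the region. The largest positive interaction, the cMyc-Bcl2 effect minus the MLL-AF9 effect, was 35.4 points at chr2:174113001-174114000 (p = 0.00488, adjusted p = 0.252, quasi-binomial fit with limma). It was 20.7 points without cMyc-Bcl2 knockin replicate 1 and 50.1 points without cMyc-Bcl2 knockin replicate 2 (adjusted p = 0.0860), and its adjusted p ranged from 0.0860 to 0.548 over the alternatives run. At chr2:174125001-174126000 it was 23.6 points (adjusted p = 0.305, quasi-binomial fit with limma), and 3.44 points at a minimum of 10 reads, with 4 positions. The largest negative one was -26.4 points at chr2:174110001-174111000 (adjusted p = 0.761), and leaving out cMyc-Bcl2 knockin replicate 2 gave -8.90 points, against -43.8 for replicate 1 of that group. Without replicate 1 of MLL-AF9 WT it was -12.9 points, and without replicate 1 of MLL-AF9 knockin -16.1. The interaction was not tested for the stretch between Nesp and exon 1A as a unit. None of its windows was called, but this fit called no window genome-wide either. Whether the higher level of that stretch in cMyc-Bcl2 knockin libraries is particular to this model was therefore not decided.

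The WT leukaemias of both models differed in these stretch means by less than the spread between MLL-AF9 WT libraries. The mean level of the Nesp stretch was 39.8 ± 2.26% in cMyc-Bcl2 WT and 39.5 ± 13.7% in MLL-AF9 WT, that between Nesp and exon 1A 46.4 ± 1.45 and 49.97 ± 8.86%, and that of exon 1A 38.6 ± 0.738 and 38.5 ± 7.97% (SD, n = 2 and n = 3). In the fit of cMyc-Bcl2 WT against MLL-AF9 WT, 0 of 13 region windows were called, beside 0.183% of 43772, with 1 of the 13 at an unadjusted p under 0.05, beside 12.9% genome-wide, and 0 called by limma on M-values. The largest negative difference was -22.2 points at chr2:174113001-174114000 (adjusted p = 0.178, quasi-binomial fit), and the largest positive one was 9.85 points at chr2:174110001-174111000 (adjusted p = 0.746), which was 0.219 points without MLL-AF9 WT replicate 1, 18.6 without MLL-AF9 WT replicate 3 and 5.31 without cMyc-Bcl2 WT replicate 1.

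The partly methylated windows of the cluster were then averaged as a class and set beside partly methylated windows of the rest of the autosomes. To keep the classing apart from the comparison, windows of 1 model were classed by WT libraries of the other, which gave the same 9 windows with 105 positions in both. In cMyc-Bcl2 the class averaged 57.3 and 43.1% in knockin libraries, against 43.8 and 41.9% in WT libraries. In MLL-AF9 it averaged 48.9, 44.6 and 43.7% in knockin libraries, against 41.1, 50.3 and 42.4% in WT libraries. The highest value was that of cMyc-Bcl2 knockin replicate 1, and genotypes overlapped in both models. The difference was 7.33 points in cMyc-Bcl2 (50.2 ± 10.1% in knockin and 42.8 ± 1.40% in WT, SD, n = 2 each; exact two-sided permutation p = 0.667), and it was 0.220 points without cMyc-Bcl2 knockin replicate 1 and 14.6 points without cMyc-Bcl2 knockin replicate 2. In MLL-AF9 it was 1.16 points (45.7 ± 2.78% in knockin and 44.6 ± 5.003% in WT, SD, n = 3 each; exact two-sided permutation p = 0.7). The mean of both, with genotype permuted within models, was 4.25 points (exact two-sided p = 0.317). The smallest p that such a test can give is 0.333 with 2 against 2 libraries and 0.100 with 3 against 3, so neither model could reach 0.05 alone.

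**Figure D5:**
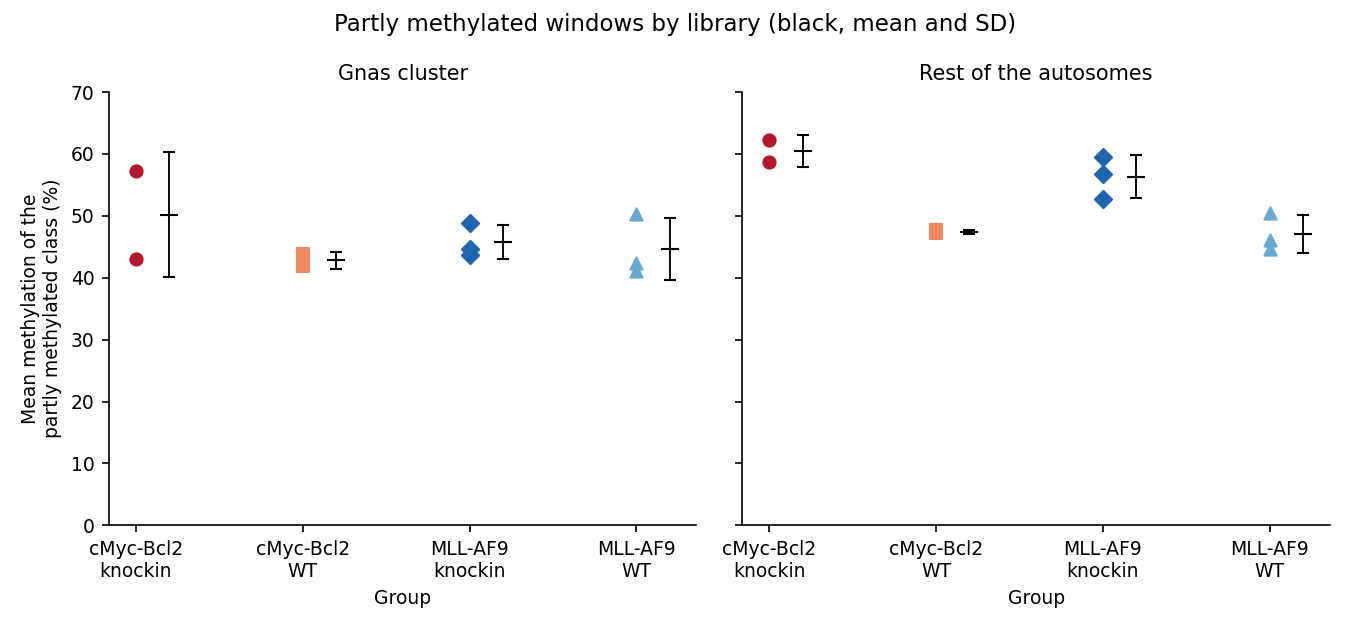
Mean methylation (%) of the partly methylated windows in each library, in the Gnas cluster (9 windows) and in the rest of the autosomes (6260 windows in cMyc-Bcl2, 6312 in MLL-AF9), with the mean and SD of each group in black. In the rest of the autosomes all knockin libraries lie above the WT libraries of their model, while in the cluster the genotypes overlap.

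Partly methylated windows elsewhere had larger mean differences. Their mean was 60.5 ± 2.57% in cMyc-Bcl2 knockin and 47.4 ± 0.312% in WT (SD, n = 2 each, 6260 windows), a difference of 13.1 points. In MLL-AF9 it was 56.3 ± 3.42% in knockin and 47.1 ± 3.07% in WT (SD, n = 3 each, 6312 windows), a difference of 9.25 points. By window, the median difference elsewhere was 7.93 points in cMyc-Bcl2 and 8.94 points in MLL-AF9, and 71.7% and 83.8% of those windows had a higher knockin mean. Of the 9 windows of the cluster, 5 had a higher knockin mean in each model, with a median difference of 10.7 points in cMyc-Bcl2 and 1.18 points in MLL-AF9. The difference exceeded the median of the rest in 5 of 9 windows in cMyc-Bcl2 and in 2 of 9 in MLL-AF9. The median of the cluster was thus lower than that of the rest in MLL-AF9 and higher in cMyc-Bcl2.

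The level of the cluster relative to the rest was tested library by library, as the mean of its partly methylated class minus that of the rest. It was -5.04 and -15.6 points in cMyc-Bcl2 knockin libraries, against -3.84 and -5.37 points in WT libraries, which overlap. In MLL-AF9 it was -10.6, -12.2 and -8.99 points in knockin libraries, against -4.99, -0.214 and -2.28 points in WT libraries, and all 3 knockin libraries lay below all 3 WT libraries. The knockin minus WT difference of this measure was -5.73 points in cMyc-Bcl2 (exact two-sided permutation p = 0.667) and -8.09 points in MLL-AF9 (exact two-sided permutation p = 0.100, the smallest that 3 against 3 can give). The test over both models can give no p below 0.0167 (exact permutation). After Benjamini-Hochberg adjustment, none of the 9 class tests could therefore fall under 0.05. Over both models the difference was -6.91 points, with an exact two-sided permutation p of 0.0333 over 120 arrangements. Its adjusted p was 0.300 over the 9 class tests made (exact permutation, Benjamini-Hochberg). It did not pass the correction, which it could not have passed, and no conclusion is drawn from that. Without cMyc-Bcl2 knockin replicate 2 it was -4.18 points over both models and -0.326 points in cMyc-Bcl2, where it was -10.9 points without knockin replicate 1, and without either cMyc-Bcl2 WT library, or without MLL-AF9 WT replicate 1 or 2, the unadjusted p was 0.05 to 0.100 (exact permutation).

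The unmethylated class, the 2 windows of the Gnas promoter, differed by 0.0501 points in cMyc-Bcl2 (0.546 ± 0.0765% in knockin and 0.495 ± 0.225% in WT, SD, n = 2 each; exact permutation p = 1.00) and by 0.00886 points in MLL-AF9 (0.722 ± 0.0626% in knockin and 0.713 ± 0.287% in WT, SD, n = 3 each; exact permutation p = 1.00). Over both models the difference was 0.0295 points (exact two-sided permutation p = 0.817). In unmethylated windows of the rest of the autosomes, the mean was 5.73 ± 0.410% in cMyc-Bcl2 knockin and 3.25 ± 0.665% in WT, and 4.02 ± 0.623% in MLL-AF9 knockin and 2.91 ± 0.348% in WT (SD, n = 2 each and n = 3 each). No test of the promoter against those windows was made.

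Among WT libraries, the partly methylated windows of the cluster were also compared with those elsewhere for their spread, as a description. The median SD over the 5 WT libraries was 9.81 points in the 9 windows of the cluster and 14.01 points in 6387 windows of the rest. Of the 9 windows, 66.7% averaged 40 to 60% over the WT libraries, against 24.5% of those elsewhere. Windows differ in how many positions and reads they hold, and the part of this in the spread was not tested.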

How the data were processed

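Methylation was measured in 10 libraries of mouse leukaemia by reduced representation bisulfite sequencing with inserts of 40 to 280 bp, per the labels' protocols. Per the submitters' processing notes, the authors ran Bismark 0.7.4 (build mm9), Trim Galore 0.2.2, methylKit and CASAVA, with settings not given in the sources used here. The deposited files give, per position, a pair of whole-number counts of methylated and unmethylated reads, in an order settled from mitochondrial CpGs. A further filter on coverage, 5 reads per position, was applied here.

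Groups follow the oncogene and knockin labels, and replicates were numbered in accession order. Positions in windows of 1000 bp with at least 3 positions, each with 5 reads in every library of a comparison, were summed, and a quasi-binomial logistic fit was made on the 19 autosomes, with the dispersion moderated by limma 3.58.1 (R 4.3.3) and held at 1 or above, an F-test and Benjamini-Hochberg adjustment. The fits were also run on simulated counts, with changes larger than the differences of the main fits in the region. What the fits can detect at those smaller differences was not tested. Classes are below 20%, 20 to 80% and above 80%, and class means weight each position once. Exact permutation tests ran over libraries, intervals for shares are exact Clopper-Pearson at 95%, and the rest used scipy 1.17.1, pandas 2.3.3 and numpy 2.4.6 in Python 3.11.15. Runs of windows of 1 class, split at gaps above 5 kb, are called stretches; the gap was chosen after seeing the data.

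Windows were named by rule: up to 3 per class with the most shared positions, those at each change of class, any called, and the largest difference each way per comparison; chr2:174109001-174110000 was named after its values were seen. Members and lists were chosen with earlier results of these data known. The alternatives were minimums of 10 and 20 reads, 500-bp windows, weighting by reads, class bounds of 30 to 70% and below 10%, classing by all 5 WT libraries, limma on M-values with 0.5 added, no minimum difference and leaving out each library; joining both strands of a CpG was added after seeing the data. Depth limits precision where few reads cover a window, and starts of XL and Nespas were not analysed here.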

Additional observations from a re-analysis of the deposited data

How the results depend on the processing

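No window of the Gnas region was called in any of the 5 comparisons under any of the alternatives run: minimums of 10 and 20 reads, 500-bp windows, limma on M-values, no minimum difference, both strands joined (chosen after seeing the data) and leaving out each library; at 20 reads no region window was left in the additive fit, the interaction or the WT comparison. Depth limits these: with 20 reads in all 10 libraries no region window was left, so no class value was obtained there.

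At a minimum of 10 reads, the region kept 3 partly methylated windows with 28 positions, against 9 with 105 in the main setting. It kept 1 unmethylated window with 26 positions, against 2 with 106. The partly methylated class in MLL-AF9 had a difference near 0 whose sign turned to -0.572 points at a minimum of 10 reads, and leaving out 1 library gave -0.745 to 3.62 points. Leaving out 1 library gave 0.220 to 14.6 points in cMyc-Bcl2 and 0.691 to 7.92 over both models. At 10 reads these were 1.73 and 0.579 points, and weighted by reads 2.52 and 1.93. The unmethylated class in MLL-AF9 turned to -0.00163 points at 10 reads, and leaving out 1 library gave -0.129 to 0.185 points there, -0.109 to 0.223 in cMyc-Bcl2 and -0.279 to 0.317 over both models. Relative to the rest of the genome, the partly methylated class kept a negative difference under all alternatives run, with -9.43 to -7.31 points in MLL-AF9, -10.9 to -0.326 in cMyc-Bcl2 and -9.49 to -4.18 over both models when 1 library was left out. At 10 reads, with only 28 positions in the region, it was -11.8 points in cMyc-Bcl2 and -11.2 over both models. Over both models, weighting by reads gave -6.46 points with an exact permutation p of 0.05, and the cause was not tested. The p-values of the other alternatives over both models were 0.0167 to 0.0333 (exact permutation), and leaving out 1 library gave 0.0167 to 0.100.

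No paired analysis was possible because the replicate numbers were given in accession order and pair no samples.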
